A study of Mus musculus with 4 samples.

Results

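The genes described here are 10 members of the NF-κB pathway, out of 32285 genes listed in each of 4 single-cell libraries of mouse epidermis. They were taken by name. Nfkb1, Nfkb2 and Relb encode NF-κB subunits, and Nfkbia and Nfkbiz encode proteins of the IκB family. Tnfaip3 encodes a ubiquitin-editing enzyme, Tnip1 and Tnip3 encode its binding partners, and Birc3 and Icam1 are target genes. The study asked how loss of ΔNp63, the p63 isoform that dominates in basal keratinocytes, changes the adult epidermis. The control genotype was DNp63fl/fl and the experimental genotype was DNp63fl/fl;K14-CreT2, called ablated below. Both received tamoxifen by gavage at 200 mg/kg daily for 5 days, so the controls carried the floxed allele and the drug but no Cre. The keratin 14 promoter drives the Cre in basal keratinocytes of the epidermis and hair follicle, and not in immune or stromal cells. Cells were taken 1 day or 1 week after ablation from mice of 2 to 17 months, with 1 library for each genotype and time. Skin was digested in trypsin either overnight in the cold or for a shorter time in the warm, which the labels do not assign to libraries.

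NF-κB factors are pairs of Rel-domain proteins that are held in the cytoplasm by IκB proteins until a kinase complex marks the IκB for destruction. Once in the nucleus they switch on inflammatory genes and also their own brakes, among them Nfkbia, which encodes IκBα, and Tnfaip3, which encodes A20. In skin, too much or too little NF-κB activity in keratinocytes is known to cause inflammation.

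The upstream sequences of 4 members are shown because κB sites, the sequences these factors bind, are the textbook link between NF-κB and its feedback genes. Each line gives the 250 bases before a RefSeq start on build GRCm38.p6, read 5′ to 3′ on the gene's strand, with matches to the κB consensus in capitals. Nfkbia lies at chr12:55492648-55492897 on the minus strand, Tnip1 at chr11:54962941-54963190 on the minus strand, Tnip3 at chr6:65590148-65590397 on the plus strand and Icam1 at chr9:21015690-21015939 on the plus strand.
Nfkbia: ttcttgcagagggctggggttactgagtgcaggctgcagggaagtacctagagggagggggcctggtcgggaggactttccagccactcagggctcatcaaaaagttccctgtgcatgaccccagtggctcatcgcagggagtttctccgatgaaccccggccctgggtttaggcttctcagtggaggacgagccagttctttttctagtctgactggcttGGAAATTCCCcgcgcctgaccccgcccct
Tnip1: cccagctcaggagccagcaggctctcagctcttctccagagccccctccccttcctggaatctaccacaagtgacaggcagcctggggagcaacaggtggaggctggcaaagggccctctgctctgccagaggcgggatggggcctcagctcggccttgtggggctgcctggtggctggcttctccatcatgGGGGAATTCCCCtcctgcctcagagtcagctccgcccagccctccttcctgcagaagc
Tnip3: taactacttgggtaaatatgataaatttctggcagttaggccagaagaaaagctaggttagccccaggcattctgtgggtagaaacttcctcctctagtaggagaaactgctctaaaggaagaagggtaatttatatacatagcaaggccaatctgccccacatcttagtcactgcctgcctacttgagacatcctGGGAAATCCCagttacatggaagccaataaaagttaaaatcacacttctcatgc
Icam1: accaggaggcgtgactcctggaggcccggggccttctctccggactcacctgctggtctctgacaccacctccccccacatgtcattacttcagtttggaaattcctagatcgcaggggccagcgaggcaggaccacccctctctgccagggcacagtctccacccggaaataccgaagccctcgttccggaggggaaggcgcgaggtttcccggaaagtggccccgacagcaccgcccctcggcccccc
The Nfkbia match begins 29 bases before the start and the Tnip3 match 54 bases before it. The capitals in Tnip1 are 3 overlapping matches, the first of them 58 bases before the start. Icam1 had no match in its window, which says only that the consensus letters are not in those bases. Both strands were searched for the 10-base consensus, and 1281 of 32851 promoter windows of the same length (3.90%) held a match in their 250 upstream bases. Of the 7 members with an entry in the RefSeq table, Nfkb2 and Tnfaip3 also had matches in at least 1 window, those of Tnfaip3 at 125 and 12 bases before the start, and Birc3 had none. Nfkb1, Relb and Nfkbiz had no entry. A match describes the sequence and is no evidence of binding.

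With 1 library in each group, the differences below have no replicates behind them and were not tested. Values are UMI counts (captured RNA molecules) summed over the cells of a class and scaled to the class's total (CPM), with exact Poisson 95% intervals. Differences are log2 ratios of ablated over control CPM with exact 95% intervals in parentheses. All intervals cover counting error only, not differences between mice. A gene is called higher or lower when it differed by 1.5-fold or more. The libraries held 68191870 to 179736563 gene UMIs over 18413 to 33552 barcodes. Levels are compared only within a time point, because the kits differed (3′ ends at 1 day, 5′ ends at 1 week). Trp63 in keratinocytes was at 405 (control) and 128 (ablated) CPM at 1 day and at 435 and 184 CPM at 1 week, although a counted tag may lie outside the deleted part.

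Several features of the libraries bear on what follows. All hashtag fractions of the 1-day libraries carried the Y-linked transcript Ddx3y at 84.2 to 103 CPM in keratinocytes and almost no Xist, although the labels give both sexes. The 1-week libraries held cells with either. At 1 day 299 barcodes were listed in both libraries, and at 1 week 661. One cluster at each time (4102 ablated and 6 control cells at 1 day, 610 ablated and 0 control at 1 week) had Krt8 among its leading genes and was not of low UMI count. Krt8 encodes a keratin of simple epithelia and Merkel cells. These cells are called Krt8-led and kept apart from the keratinocytes. Of the 8 Merkel cell markers, the defining genes Atoh1 and Isl1 were at 0 in the keratinocytes of all 4 libraries. The 4 markers with enough UMIs to compare were all higher by 1.5-fold or more at both times. Krt20 and Chga were at 0 in the 1-week control keratinocytes and were detected in the ablated ones. Over all cells, which include the Krt8-led ones, Isl1 was detected in the 1-week ablated library and Atoh1 in none of the 4. In keratinocytes the list summed to 2.03 CPM (control) and 304 CPM (ablated) at 1 day and to 1.55 and 211 CPM at 1 week. The part of these markers in the results was not tested. In the keratinocytes 14 markers of the type summed to 44912 and 38712 CPM at 1 day and to 52011 and 31342 CPM at 1 week. Of these 14, 3 were lower by 1.5-fold or more in the ablated library at 1 day and 9 at 1 week, and 0 were higher at either time. At 1 week, clusters of low UMI count held 11395 control and 11065 ablated cells and were also set apart. Of these, 2 clusters also had Krt8 among their leading genes, with 2565 ablated and 4 control cells and with 205 ablated and 0 control cells.

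In the control libraries the 10 genes had distinct distributions over the cell classes. Tnfaip3 was highest in T cell-like cells, at 585 (546 to 627) CPM at 1 day and 1013 (926 to 1106) CPM at 1 week. Among keratinocytes it was highest in the basal-like class, at 403 and 416 CPM. It was lowest in the bulge-like class, at 49 and 61 CPM. The 1-week interval there overlapped that of the sebaceous-like class at 62.4 (48.9 to 78.4) CPM. The bulge-like class was named from markers of the bulge, the hair follicle stem cell region, and of the outer root sheath. At 1 week it pooled a cluster at 20.6 CPM (956 cells) and one at 97.7 CPM (771 cells). The second had Ccl2, Fst and Sostdc1 among its leading genes, as did a 1-day cluster left without a class. The class may therefore hold different cells at the 2 times. The T cell-like interval lay above that of every other class at both times. The intervals of the basal-like, Langerhans-like, fibroblast-like and endothelial-like classes overlapped at 1 week.

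Icam1, an adhesion molecule that leukocytes bind, showed a steep contrast between layers. Basal-like cells held 188 (183 to 193) CPM at 1 day and 164 (158 to 170.2) CPM at 1 week. The suprabasal-like class held 10.2 (9.18 to 11.2) and 27.7 (25.6 to 30) CPM. Bulge-like cells lay between them at 72.4 and 109 CPM. At 1 week the stromal classes exceeded every keratinocyte class, with 605 CPM in endothelial-like, 568 CPM in fibroblast-like and 452 CPM in smooth muscle-like cells. The endothelial-like interval overlapped the fibroblast-like one.

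Tnip3, which encodes a protein that binds A20, was scarce in most classes. At 1 day it was at 41.2 (29.6 to 55.9) CPM in Langerhans-like cells, the antigen-presenting cells of the epidermis, and at 12.7 (11.4 to 14) CPM in basal-like cells. Suprabasal-like, bulge-like and upper follicle-like cells held 1.08, 0.518 and 0.116 CPM. At 1 week basal-like cells held 16 (14.2 to 18) CPM and Langerhans-like cells 11.5 (6.44 to 19) CPM, and these intervals overlapped. Tnip1, the other partner of A20, was highest in Langerhans-like cells at 1 day (148 CPM) and in endothelial-like cells at 1 week (165 CPM, an interval that overlapped that of T cell-like cells), against 33.1 and 35.7 CPM in basal-like cells.

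The subunits and Birc3 had their highest levels outside the keratinocytes. Nfkb1, which encodes the p105 precursor of p50, was at 409.7 CPM in fibroblast-like and 342 CPM in basal-like cells at 1 day, and at 437 and 245 CPM at 1 week. Suprabasal-like cells held 165 and 107 CPM. Nfkb2, which encodes the p100 precursor of p52, shared its highest values between fibroblast-like and Langerhans-like cells at 1 day (112 and 112 CPM), and the basal-like class held 75.2 CPM. Relb, whose protein pairs with p52, was at 101 CPM in Langerhans-like cells at 1 day against 31 CPM in basal-like cells. Birc3, which encodes the apoptosis inhibitor cIAP2, was at 102 CPM in fibroblast-like and 88.4 CPM in Langerhans-like cells at 1 day, with overlapping intervals, and at 185 CPM in fibroblast-like cells at 1 week, against 23.3 and 36.2 CPM in basal-like cells. Within the epidermal layers each of these 4 genes was higher in basal-like than in suprabasal-like cells at both times, with intervals that did not overlap.

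Nfkbia and Nfkbiz, which encodes the nuclear protein IκBζ, were detected throughout. Nfkbia was at 1070.0 CPM in basal-like, 797 CPM in suprabasal-like and 1947 CPM in fibroblast-like cells at 1 day. At 1 week it reached 4516 CPM in endothelial-like cells. Nfkbiz was highest in sebaceous-like cells at 1 day (533 CPM) and lowest of the keratinocyte classes in suprabasal-like cells (155 CPM).

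**Figure D1:**
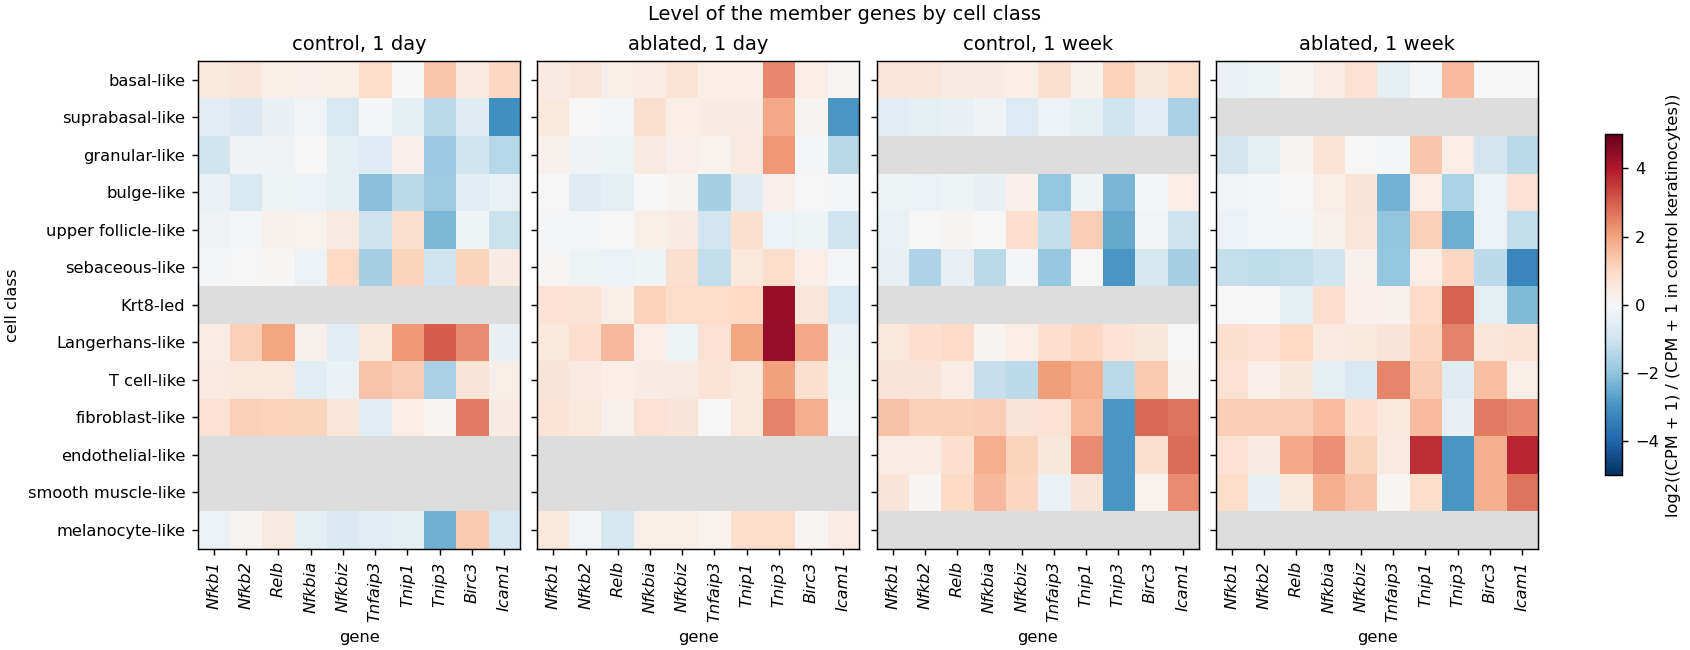
Level of each member by cell class in each library, as log2 of CPM + 1 relative to the control keratinocytes of the same time point (colour, with scale ends at 5 and -5). Grey rows are classes with under 50 cells in that library. Tnip3 is high in the Langerhans-like and basal-like rows of the controls and in the Krt8-led row of the ablated libraries.

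The libraries of a time point were then compared over all keratinocytes. These were 20397 control against 17833 ablated cells at 1 day, and 7476 against 3183 at 1 week. At 1 day 1 of 10 members, Tnip3, was called higher, where 14.2% of all genes compared were higher. Icam1 alone was called lower, where 8.01% of genes were lower. At 1 week Tnip1 was the member called higher (background 25.2%) and Tnfaip3 the member called lower (background 10.9%). A count of 1 in 10 is near these shares at 1 day and for the lower calls at 1 week, and below the share of higher calls at 1 week. The median log2 ratio of the 10 members was 0.23 at 1 day and -0.062 at 1 week, against 0.012 and 0.19 over all genes compared.

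**Figure D2:**
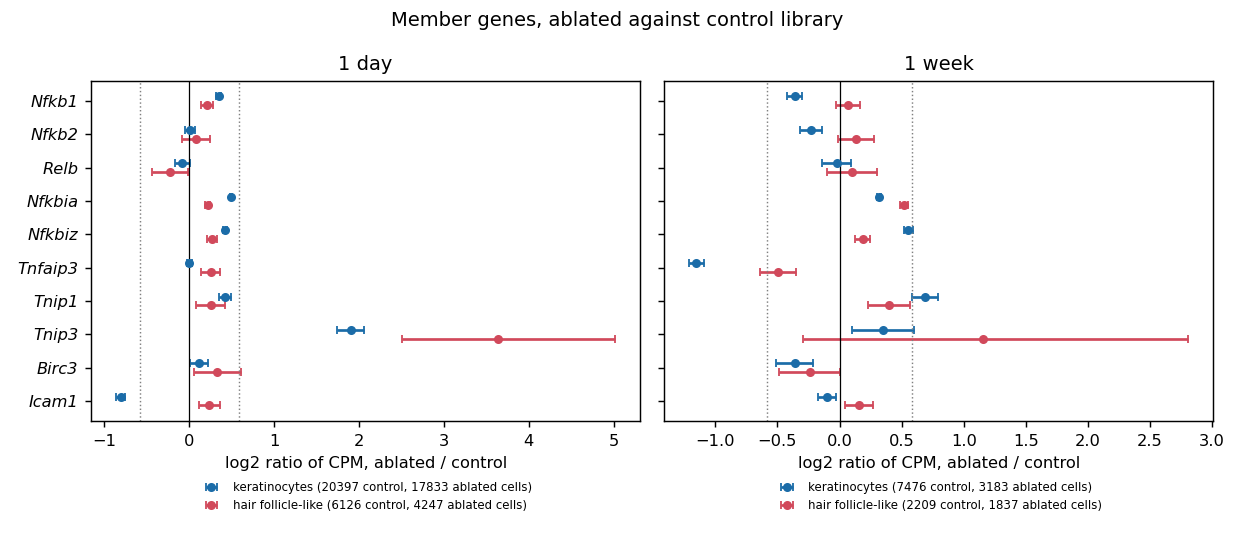
Log2 ratio of CPM (ablated over control, horizontal axis) of each member in all keratinocytes and in the hair follicle-like classes at both times, with exact 95% intervals of counting error and dotted lines at 1.5-fold. Tnip3 stands farthest right at 1 day, and Icam1 (bottom) lies left of 0 in keratinocytes but right of it in the hair follicle-like cells.

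Among the subunits, Nfkb1 was higher in the ablated library at 1 day and lower at 1 week. At 1 day the control held 239 CPM and the ablated library 303 CPM, a log2 ratio of 0.34 (0.32 to 0.37). One week after ablation the values were 159.6 and 124 CPM, with a ratio of -0.36 (-0.42 to -0.30). Neither reached 1.5-fold. Nfkb2 was at 48.8 and 49 CPM at 1 day, and its interval included 0, with a ratio of 0.0055 (-0.056 to 0.067). Its 1-week values were 65.8 and 56.2 CPM, -0.23 (-0.32 to -0.14). Relb was at 24.9 and 23.5 CPM at 1 day, with a ratio of -0.084 (-0.17 to 0.0031), and at 32.1 and 31.6 CPM at 1 week, -0.024 (-0.15 to 0.096). Nfkb2 and Relb, the gene pair of the alternative pathway, stayed below 1.5-fold at both times when summed over all keratinocytes. Within the 1-week clusters Nfkb2 was at 0.89 (0.53 to 1.26) in a bulge-like one and at -0.99 (-1.21 to -0.77) in the basal-like one, both past 1.5-fold and in opposite directions. Relb in these clusters was at 0.53 (0.065 to 1.00) and -0.90 (-1.19 to -0.60).

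Nfkbia and Nfkbiz were both higher over all keratinocytes of the ablated library at both times, by less than 1.5-fold. Nfkbia went from 888 to 1249.7 CPM at 1 day, a ratio of 0.49 (0.48 to 0.51). At 1 week it went from 1276 to 1591 CPM, 0.32 (0.30 to 0.34). Nfkbia is the textbook feedback inhibitor, and its printed upstream stretch holds a match close to the start. No binding was measured, and the part of this match in the difference was not tested. Nfkbiz went from 268 to 359 CPM, 0.42 (0.39 to 0.44), and from 247 to 362 CPM, 0.55 (0.52 to 0.59). Its interval lay below 0 in the 1-week upper follicle-like cluster, -0.24 (-0.33 to -0.14). The same held in a 1-day sebaceous-like cluster (471 and 293 cells), -0.21 (-0.33 to -0.090).

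Tnfaip3 was at nearly the same level in both 1-day libraries and below the control level in the 1-week ablated library. Its values were 217 and 216 CPM at 1 day, with a ratio of -0.0033 (-0.032 to 0.026). At 1 week they were 238 and 107 CPM, -1.15 (-1.21 to -1.09). Within the 5 clusters at 1 week its median ratio was -0.60, from -0.77 to 0.24. The share of cells with a Tnfaip3 UMI, after every cell was thinned to 2000 UMIs, was 29.5% against 31.3% at 1 day. At 1 week it was 29.6% against 13.4%. Without thinning, the 1-week shares were 53.3% and 29.3%, at median depths of 6053 and 5357 UMIs. In the 1-week control bulge-like class, where Tnfaip3 was lowest, the thinned share was 7.72% at a median depth of 3896 UMIs.

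The genes of both partners of A20 were higher over all keratinocytes. Tnip1 went from 32.8 to 43.8 CPM at 1 day, with a ratio of 0.42 (0.35 to 0.49), and from 30.9 to 49.9 CPM at 1 week, 0.69 (0.59 to 0.80). Within the 1-week clusters Tnip1 was above 0 in 3 of 5, with a median of 0.19. In the basal-like cluster it was in the reverse direction, -0.52 (-0.86 to -0.17). The 1-week call of Tnip1 was lost when the total UMI counts were replaced by TMM or median-of-ratios scaling factors. It passed 1.5-fold in 10 of 17 alternatives. Tnip3 went from 4.23 to 15.8 CPM at 1 day, with a ratio of 1.90 (1.74 to 2.06), the widest difference among the members. At 1 week it went from 6.60 to 8.42 CPM, 0.35 (0.10 to 0.60), which did not reach 1.5-fold. The thinned share of keratinocytes with a Tnip3 UMI at 1 day was 0.775% (control) and 2.69% (ablated), and 1.62% and 4.54% without thinning, at median depths of 4304 and 3355 UMIs. In control upper follicle-like cells, the keratinocyte class with the lowest control level, 0 of 1808 thinned cells had one, an exact binomial interval up to 0.204%, at a median depth of 3965.5 UMIs. Langerhans-like cells had the highest control level of Tnip3 at 1 day, and all 8 Langerhans cell markers were higher by 1.5-fold or more in the ablated keratinocytes at that time, with sums of 161 and 303 CPM. At 1 week 1 of the 8 was, with sums of 296 and 325 CPM. Their part in the Tnip3 difference was not tested.

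Of the targets, Birc3 differed little and Icam1 was lower at 1 day. Birc3 went from 16.2 to 17.5 CPM at 1 day, with a ratio of 0.11 (0.0052 to 0.21), and from 24.4 to 19 CPM at 1 week, -0.36 (-0.51 to -0.21). Icam1 went from 92.2 to 52.6 CPM at 1 day, with a ratio of -0.81 (-0.86 to -0.76). One week after ablation Icam1 differed less, at 86.4 and 80.6 CPM, -0.100 (-0.17 to -0.025). This sum pools opposite directions. Icam1 was at -0.97 (-1.15 to -0.79) in the 1-week basal-like cluster and at -3.98 (-7.09 to -2.01) in the sebaceous-like one, on 31 and 2 UMIs. In the bulge-like clusters it was at 0.50 (0.30 to 0.71) and 0.30 (0.15 to 0.46).

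The makeup of the keratinocytes differed between the libraries, which moves a sum over all of them. The 1-day control had 5876 basal-like cells against 1524 in the ablated library, and granular-like cells 282 and 3565. At 1 week basal-like cells numbered 2358 and 391, and suprabasal-like cells 2443 and 7. The members were therefore also compared within single clusters that held at least 50 cells of both libraries, 14 at 1 day and 5 at 1 week.

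Within clusters at 1 day, Nfkbia was higher in 13 of 14, all 13 with an interval above 0, and the median ratio was 0.29. Nfkb1, Nfkbiz, Tnfaip3 and Tnip1 were each above 0 in 12 of 14 clusters, with medians of 0.26, 0.36, 0.21 and 0.51. Tnip3 was above 0 in all 11 clusters with a ratio, 9 of them with an interval above 0, with a median of 2.37 and a range from 0.43 to 4.51. The other 3 clusters had no Tnip3 UMI in the control library. Many of the Tnip3 ratios rest on few control UMIs. The median is the value of a bulge-like cluster with 5 control and 17 ablated UMIs, 2.37 (0.87 to 4.16). The largest basal-like cluster, with 318 and 35 UMIs, was at 0.43 (-0.12 to 0.93). Relb was above 0 in 4 clusters, Nfkb2 in 6, Birc3 in 9 and Icam1 in 7. The clusters are parts of 1 pair of libraries and are not replicates.

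**Figure D3:**
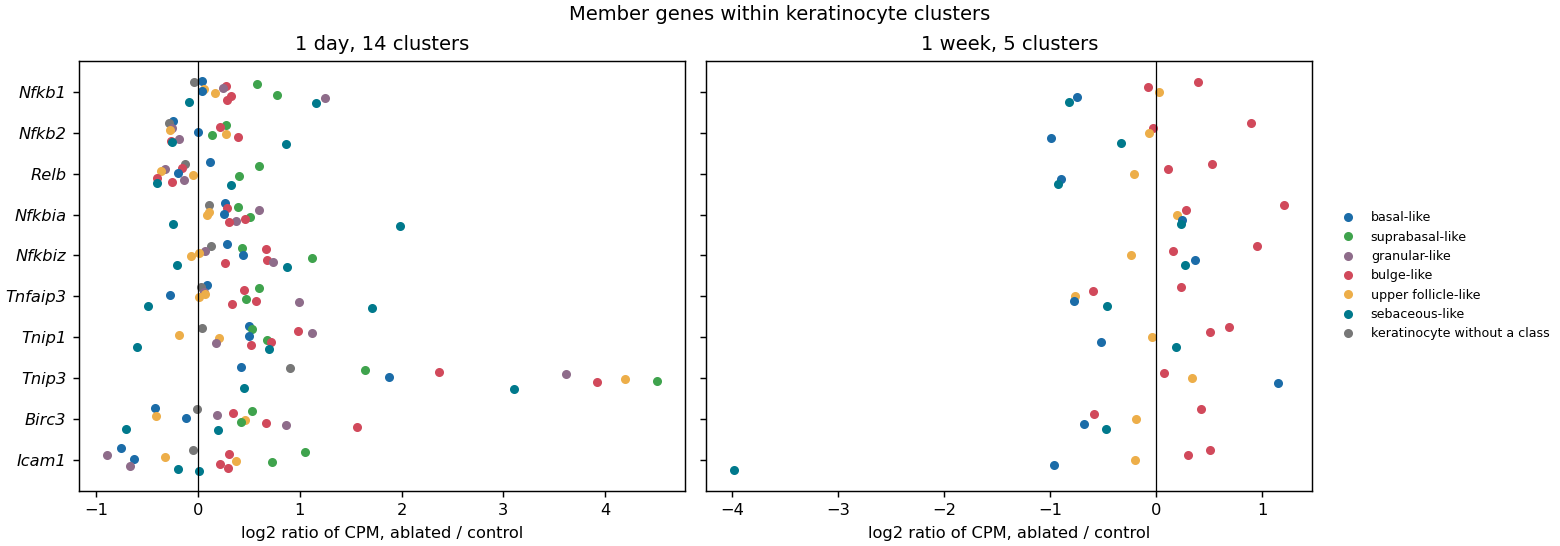
Log2 ratio of CPM (ablated over control) of each member within every keratinocyte cluster with at least 50 cells in both libraries, 1 point per cluster, coloured by class. Clusters with no control UMI of Tnip3 have no Tnip3 point. Nfkbia lies right of 0 in 13 of 14 clusters at 1 day and in all 5 at 1 week, while Icam1 lies on both sides.

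Icam1 at 1 day went in different directions in different layers. Its interval lay below 0 in 3 clusters, both basal-like ones and 1 granular-like one, and above 0 in 4. In the largest basal-like cluster (4990 control and 574 ablated cells) Icam1 was at 203 and 120.4 CPM, -0.75 (-0.95 to -0.56). In the basal-like cluster led by cell cycle genes it was at 138 and 89 CPM, -0.63 (-0.79 to -0.47). Basal-like cells, where Icam1 was highest among the layers of the control, were thus lower in the ablated library. A 1-day cluster left without a class (2546 and 1800 cells) scored nearest to basal-like by the mean of its markers. Its leading genes, however, included Sostdc1, which is on the bulge and outer root sheath list and also led a 1-week bulge-like cluster. In the 1-day cluster Icam1 was at 179 and 173.5 CPM, -0.046 (-0.15 to 0.054), an interval that included 0. The clusters above 0 were the largest bulge-like one, at 97.3 and 119.8 CPM, 1 of the upper follicle-like ones (0.38) and 2 suprabasal-like ones (1.05 and 0.73). The thinned share of basal-like cells with an Icam1 UMI was 27.5% (control) and 14.2% (ablated), or 46.4% and 23.4% unthinned at median depths of 4391 and 3737.5 UMIs. In suprabasal-like cells, the layer with the lowest control level, the thinned shares were 2.12% and 1.93%, at medians of 6412 and 4343.5 UMIs.

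Basal-like cells at 1 day, 5876 control and 1524 ablated, had 1 member called higher (background 22.2%) and 1 lower (background 6.89%). Tnip3 went from 12.7 to 26.4 CPM, 1.06 (0.80 to 1.32), and Icam1 from 188 to 97 CPM. Most control cells (4990) lay in 1 cluster and most ablated cells (950) in the one led by cell cycle genes. In the first (4990 and 574 cells) Tnip3 was at 14.1 and 19 CPM, 0.43 (-0.12 to 0.93), which was not called and whose interval included 0. In the second (886 and 950 cells) it was at 7.89 and 29 CPM, 1.88 (1.42 to 2.35). Tnfaip3 was at 403 and 273 CPM, -0.56 (-0.63 to -0.49), just short of 1.5-fold, and within the first cluster it was at 451 and 479.6 CPM, 0.088 (-0.012 to 0.19). In the second cluster it was at 245 and 203 CPM, -0.28 (-0.39 to -0.17), an interval below 0. The 19 stress and dissociation genes summed to 6410 and 8852 CPM in the basal-like class, 9 of them higher. Krt8 was at 0.0889 and 48.3 CPM in the first cluster and at 1.75 and 920.05 CPM in the second, and the part of either was not tested.

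The suprabasal-like class had 7 of 10 members called higher at 1 day, where 17.2% of genes were higher. Most of its control cells lay in 1 cluster (3941 cells) and most of its ablated cells in another (5232 cells), so this value does not compare like with like. In each of the 2 clusters that both libraries filled, all 10 members were above 0. Their median was 0.56 in the cluster of 3941 control cells and 0.60 in the other, against 0.095 and -0.010 over all genes compared. In the first (3941 and 372 cells) Nfkb1 was at 199.8 and 299 CPM, 0.58 (0.43 to 0.73), and Tnfaip3 at 243 and 369 CPM, 0.60 (0.47 to 0.73). In the second (1017 and 534 cells) Nfkbiz was at 65.8 and 143 CPM, 1.12 (0.95 to 1.28), and Tnip3 rested on 5 and 29 UMIs. In the first cluster 4 members passed 1.5-fold upward, where 16.2% of genes did, and in the second 5 did, where 10.7% of genes did. Trp63 was at 355 and 436 CPM in the first and at 186 and 127 CPM in the second. The summed level of 19 stress and dissociation genes was 4373 and 6224 CPM in the first and 4228 and 6248 CPM in the second, and its part in the ratios was not tested.

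Sebaceous-like cells at 1 day fell into 2 clusters that went opposite ways. In the one led by lipid genes such as Soat1 and Fa2h (128 and 266 cells) all 10 members were above 0 and 7 were called higher, where 26.0% of genes were, with Nfkbia at 189.8 and 749 CPM, 1.98 (1.75 to 2.21). In the other (471 and 293 cells) 1 of 10 was above 0 and 2 of 9 compared were called lower, where 7.48% of genes were, with Nfkbia at 912 and 768 CPM, -0.25 (-0.35 to -0.15). The median of the members compared was 0.87 in the first and -0.26 in the second, against 0.10 and 0.073 over all genes compared. The stress and dissociation genes summed to 5142 and 7079 CPM in the first and to 7090 and 8221 CPM in the second. Krt8 was at 3.0 and 254 CPM in the first and at 7.04 and 223 CPM in the second, and the part of either was not tested.

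Granular-like cells at 1 day, 282 control and 3565 ablated, had 5 members called higher, where 29.1% of genes were higher. Nfkb1 went from 120.4 to 274 CPM, 1.18 (1.00 to 1.38), and Tnfaip3 from 138 to 243 CPM, 0.82 (0.64 to 1.00). Tnip3 rested on 1 control UMI. Most control cells (172) lay in 1 cluster and most ablated cells (2257) in another, so the pooled values do not compare like with like. In the cluster of 172 control and 1009 ablated cells Nfkb1 was at 1.25 (0.98 to 1.52) and Tnfaip3 at 0.99 (0.76 to 1.23). In the one of 104 and 2257 cells they were at 0.24 (-0.038 to 0.53) and 0.057 (-0.24 to 0.37), intervals that included 0. Nfkbia was above 0 in both, at 0.37 (0.29 to 0.45) and 0.60 (0.43 to 0.77). The larger granular-like cluster also had the Langerhans cell genes H2-Aa, H2-Ab1 and Cd207 among its leading genes, and their part in these values was not tested. In the cluster of 172 control cells 5 members were called higher, where 19% of genes were, and 1 lower, where 11.6% were. In the one of 104 control cells 3 were called higher (background 23.9%) and 1 lower (background 15.4%). The 19 stress and dissociation genes summed to 7006 and 8880 CPM in the class, 8 of them higher and 0 lower. Krt8 was at 0 and 115 CPM in the first cluster and at 0 and 430 CPM in the second. The part of either in these values was not tested.

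The 1-day S100a8-led cells (118 control and 473 ablated), an epidermal cluster with Krt6b, S100a8 and S100a9 among its leading genes, had 8 of 10 members called higher, where 22.6% of genes were, and 1 lower, where 11.3% were. Nfkbia was at 462 and 1086 CPM, 1.23 (1.10 to 1.36). Tnip1 was at 8.86 and 28.1 CPM, 1.66 (0.75 to 2.72). Nfkb1 was at 143 and 246 CPM, 0.78 (0.55 to 1.03). Tnip3 had no UMI in the control cells and was at 21.9 CPM in the ablated ones. Icam1, the member called lower, was at 35.4 and 20 CPM, -0.83 (-1.41 to -0.23). In the same cells the 19 stress and dissociation genes summed to 4534 and 7519 CPM, 12 of them higher, and Krt8 was at 0 and 382 CPM. The part of either in these values was not tested. Among the marker lists of other cell types, the neutrophil list, which includes S100a8 and S100a9, scored highest in this cluster.

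Summed over the hair follicle-like cells, Tnip3 alone passed 1.5-fold at 1 day. Over 6126 control and 4247 ablated hair follicle-like cells at 1 day, it was the 1 member of 10 called higher, where 6.68% of genes were higher, and none was called lower (background 4.43%). It went from 0.346 to 4.32 CPM, on 7 and 59 UMIs, 3.64 (2.51 to 5.02). Nfkbia was at 844 and 980.2 CPM, 0.22 (0.18 to 0.25). The summed stress and dissociation genes there were at 12468 and 13932 CPM, against 6978 and 9800.3 CPM in all keratinocytes, and their part in these results was not tested.

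Within the hair follicle, the bulge-like class had more members past 1.5-fold at 1 day than the upper follicle-like class, and the difference between the classes was not tested. In the bulge-like class 4 members were called higher, where 7.77% of genes were: Tnip1 from 12.2 to 21.5 CPM (0.82), Nfkbiz from 198 to 298 CPM (0.59), Birc3 from 10.8 to 16.3 CPM (0.60), and Tnip3 from 0.518 to 5.22 CPM (3.33). The Birc3 interval included 0 in 2 of the 3 bulge-like clusters, 0.35 (-0.11 to 0.80) and 0.67 (-0.31 to 1.66), and it was at 1.56 (0.59 to 2.59) in the third, on 15 and 26 UMIs. The hashtag fractions of the bulge-like class overlapped for Birc3 and Nfkbiz. For Tnip1 and Tnip3 every ablated fraction lay above every control fraction, 2 of 10 members where 6.88% of genes did so. For Relb every ablated fraction (15.6 to 22.2 CPM) lay below every control fraction (22.4 to 34.7 CPM), where 5.72% of genes did. The upper follicle-like cells lay in clusters of 980 control and 952 ablated cells and of 1012 and 759 cells. In this class Tnip3 alone was called higher (background 8.19%), on 1 control and 20 ablated UMIs. Its hashtag fractions overlapped, at 0 CPM in the control and 0 to 3.79 CPM in the ablated library. Nfkbiz, Tnip1 and Birc3 had intervals that included 0. Nfkbia was at 0.30 in the bulge-like and 0.11 in the upper follicle-like class.

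Summed over the 1-week follicle, Nfkbia was higher and Tnfaip3 lower in the ablated library. Hair follicle-like cells (2209 control, 1837 ablated) went from 1076 to 1540.2 CPM for Nfkbia, 0.52 (0.49 to 0.55), and from 71.8 to 50.8 CPM for Tnfaip3, -0.50 (-0.64 to -0.35). Both stayed below 1.5-fold. Tnfaip3 was not lower in the largest follicle cluster, a bulge-like one, at 20.6 and 24.2 CPM, 0.24 (-0.19 to 0.67). Tnip3, the member called higher (background 8.85%), rested on 6 and 15 UMIs and its interval included 0. None was called lower (background 9.92%). In the bulge-like class Nfkbia was the member called higher (background 8.31%), from 994 to 1571 CPM, 0.66 (0.62 to 0.70), which pools 1.21 and 0.28 in its 2 clusters. In the upper follicle-like class it was at 0.20 (0.15 to 0.25), and Tnfaip3 was the member called lower (background 6.45%), from 101 to 59.7 CPM, -0.76 (-0.99 to -0.54).

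Basal-like cells at 1 week had 4 members called lower, where 15.3% of genes were lower. Tnfaip3 went from 416 to 168 CPM, -1.31 (-1.41 to -1.22). Nfkb1, Icam1 and Nfkb2 were at -0.95, -0.92 and -0.82. The control cells lay mostly in 1 cluster (2094 cells) and the ablated cells in a second one. That second cluster (264 and 371 cells) was led by cell cycle genes together with Prl2c3, Il24 and Tslp. In it Tnfaip3 was at 251 and 147 CPM, -0.77 (-0.91 to -0.63), and Nfkb2 and Relb were at -0.99 and -0.90. Nfkbia and Nfkbiz in that cluster were above 0, at 0.24 and 0.36. In this cluster 6 members were called lower, where 15.9% of genes were, and 1 higher, where 19.9% were. The higher one was Tnip3, at 8.61 and 19.1 CPM, 1.15 (0.53 to 1.81). Krt8 was at 0.319 and 520.5 CPM in the same cells, and its part was not tested. The bulge-like cluster of 956 control and 828 ablated cells went the other way: 4 of 9 members compared were called higher, where 9.47% of genes were, with Nfkbia from 696 to 1608 CPM, 1.21 (1.15 to 1.27). In the other bulge-like cluster (771 and 458 cells) 1 of 9 was called lower (background 7.09%), Tnfaip3 at -0.60 (-0.81 to -0.38). No member passed 1.5-fold upward there, and Nfkbia was at 0.28 (0.23 to 0.33). The stress and dissociation genes summed to 33231 and 38824 CPM in the cluster of 956 control cells and to 14603 and 17216 CPM in the basal-like one, and their part was not tested. Over the 5 clusters at 1 week, Nfkbia was above 0 in 5, Nfkbiz in 4, Tnip1 in 3, Nfkb1, Relb and Icam1 in 2, and Tnfaip3, Birc3 and Nfkb2 in 1. Tnip3 was above 0 in the 3 clusters with a ratio, of which 1 had an interval above 0. Nfkb1 was at 0.39 (0.21 to 0.58) in the bulge-like cluster of 956 control cells and at -0.74 (-0.90 to -0.59) in the basal-like one.

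The Krt8-led cells of the ablated libraries were compared with the other classes only by level, since the controls held almost none. At 1 day they held 1989 (1967 to 2012) CPM of Nfkbia, 415 (405 to 426) CPM of Tnfaip3 and 399.6 (389.6 to 409.7) CPM of Nfkb1. All ablated keratinocytes held 1249.7, 216 and 303 CPM of the same genes. Tnip3 was at 106 (101 to 111) CPM in the Krt8-led cells against 15.8 CPM in keratinocytes, and was among the 10 genes that led the cluster, so its level there is a description. At 1 week the Krt8-led cells held 2267 CPM of Nfkbia, 276 of Tnfaip3, 57.6 of Tnip3 and 17.9 of Icam1. Icam1 was thus lower there than in the ablated keratinocytes, at 80.6 CPM.

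Tnip3 was set beside Krt8 in each class of the ablated libraries. At 1 day the ablated library held 5.48 Tnip3 UMIs per 100 Krt8 UMIs in Krt8-led cells (5.21 to 5.76), 3.79 in basal-like, 5.20 in bulge-like, 5.90 in suprabasal-like, 8.05 in granular-like (7.12 to 9.08), 4.66 in T cell-like and 6.14 in fibroblast-like cells. T cell-like and fibroblast-like cells do not normally make Krt8. They held 448 and 461 CPM of it in the ablated library, against 0 and 0 CPM in the control. Langerhans-like cells stood apart with 107 Tnip3 UMIs per 100 Krt8 UMIs (82.2 to 139), and the control basal-like cells held 12.7 CPM of Tnip3 with 0.477 CPM of Krt8. The part of free RNA from Krt8-expressing cells in the Tnip3 differences was not tested. In keratinocytes with no Krt8 UMI, Tnip3 went from 4.24 to 8.75 CPM at 1 day, a log2 ratio of 1.04. At 1 week it went from 6.59 to 4.28 CPM, the opposite direction to that of all keratinocytes. Leaving out cells with a Krt8 UMI took 0.343% of control and 32.6% of ablated keratinocytes at 1 day, and 0.388% and 17.6% at 1 week. The libraries were thus not filtered alike. The ratios 1 week after ablation were 6.62 Tnip3 UMIs per 100 Krt8 UMIs in Krt8-led cells (6.10 to 7.17), 4.35 in basal-like cells (3.64 to 5.15), 83.7 in Langerhans-like cells (52.2 to 133) and 0.791 in upper follicle-like cells (0.0952 to 2.89). Fibroblast-like cells held 18.8 on 3 Tnip3 UMIs (3.50 to 65.5), an unnamed cluster 16.7 (7.61 to 32.8), and Schwann-like cells 0 Tnip3 UMIs beside 56 of Krt8.

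**Figure D4:**
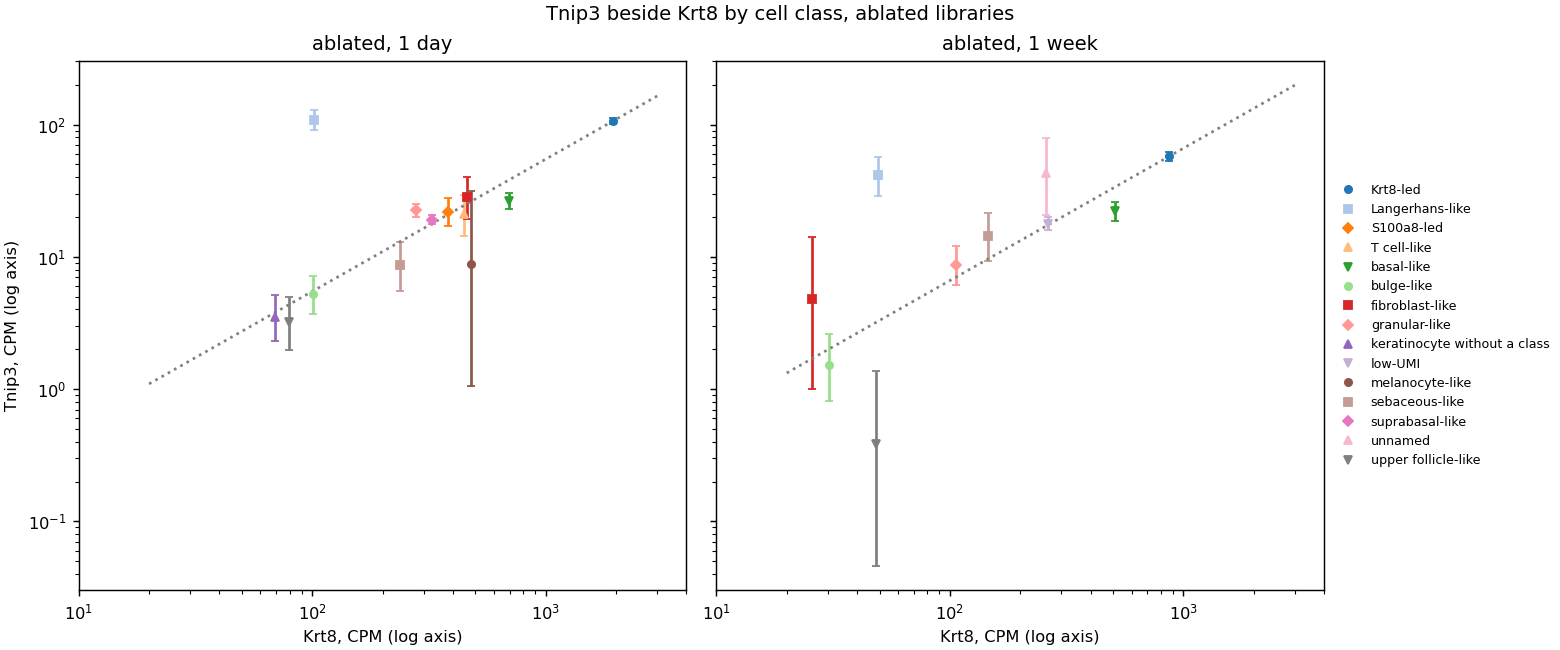
Tnip3 against Krt8, both in CPM on log axes, in the cell classes of the ablated libraries at both times, 1 point per class with its exact 95% interval, and a dotted line at the ratio of the Krt8-led cells. Most 1-day classes lie near the line, with the granular-like class above and the basal-like class below it, and the Langerhans-like cells lie above it at both times.

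In the immune and stromal classes, where the Cre is not driven, the counts of members called were near the share of all genes in most comparisons. Langerhans-like cells at 1 day had 1 member called higher (background 12.7%), Tnip3, from 41.2 to 109 CPM, 1.40 (0.88 to 1.95). In these cells the 19 stress and dissociation genes summed to 7362 and 8944 CPM, with 7 higher and 0 lower, and their part was not tested. At 1 week Tnip3 went from 11.5 to 41.3 CPM and Icam1 from 88.3 to 139 CPM (background 14.7%). Over the 1-week Langerhans-like and T cell-like cells together, the 14 keratinocyte markers summed to 22180 and 13376 CPM, 10 of them lower by 1.5-fold or more, and the 11 macrophage or dendritic cell markers to 305 and 797.5 CPM, 5 of them higher. The 19 stress and dissociation genes summed to 14604 and 17770 CPM in the 1-week Langerhans-like cells. Their part was not tested. T cell-like cells at 1 day had 3 members called higher (background 18.5%) and 2 lower (background 23.6%). Nfkbia went from 595 to 1172 CPM, 0.98 (0.86 to 1.10), while Tnfaip3 went from 585 to 348 CPM, -0.75 (-0.91 to -0.59). Over the 1-day Langerhans-like and T cell-like cells together, 14 keratinocyte markers summed to 9312 and 17961 CPM and 9 suprabasal keratinocyte markers to 2982 and 11576 CPM, 8 of the 9 higher by 1.5-fold or more. All 11 T cell markers were lower there, with sums of 5328 and 1484 CPM. In the T cell-like cells Krt14, a keratin of basal keratinocytes, was at 2256 and 3029.8 CPM. The part of these markers in the member ratios was not tested. The T cell-like medians were 1242 and 2874 UMIs per cell, and the control one lay below 1368, the lowest count in the ablated library. Endothelial-like cells at 1 week (54 cells in each library) had 4 of 9 members with enough UMIs called higher (background 18.8%), with Tnip1 from 165 to 407 CPM and Icam1 from 605 to 1230.3 CPM.

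Melanocyte-like cells at 1 day, 142 control and 59 ablated, had 6 of 7 members compared called higher (background 17.0%), on few UMIs. Their medians were 936.5 and 2934 UMIs per cell, and the control one lay below 1368, the lowest count in the ablated library. Nfkbia was at 649 and 1083 CPM, 0.74 (0.45 to 1.03), and Icam1 at 49.7 and 118 CPM, 1.25 (0.25 to 2.33). Krt8 was at 0 and 478 CPM in the same cells, and the part of RNA from other cells was not tested.

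Fibroblast-like cells at 1 day (471 control and 297 ablated) had 3 members called lower, where 27.6% of genes were, and 1 higher, where 18.8% were. These counts are near what all genes gave. The fibroblast-like medians were 1135 (control) and 2895 (ablated) UMIs per cell, and the control one lay below 1368, the lowest count in the ablated library. Relb was at 56.2 and 29.2 CPM, -0.95 (-1.64 to -0.27), Birc3 at 102 and 59.3 CPM, -0.78 (-1.27 to -0.31), and Nfkb2 at 112 and 71.2 CPM, -0.66 (-1.11 to -0.22). Tnip3, the member called higher, was at 4.59 and 28.3 CPM on 4 and 31 UMIs, 2.62 (1.12 to 4.59). At 1 week no member was called either way in fibroblast-like cells (background 16.8% higher and 10.1% lower).

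The 1-day cells could be split by 3 hashtag antibodies, whose meaning the labels do not give. Nfkbia in keratinocytes was at 704, 1091 and 883 CPM in the control fractions and at 1227, 1262 and 1249 CPM in the ablated ones. Tnip3 was at 2.54, 7.68 and 4.18 CPM against 13.1, 15.7 and 13.1 CPM. For these and Nfkbiz every ablated fraction lay above every control fraction, 3 of 10 members where 17.3% of genes did so. No member had every ablated fraction below every control fraction, where 16.0% of genes did. For Icam1 the control fractions were at 51.1, 154 and 85.3 CPM and the ablated ones at 53.4, 45.1 and 63.4 CPM, so the groups overlapped. The control fractions of Tnfaip3 spanned 146 to 314 CPM, wider than the 216 to 224 CPM of the ablated ones.

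The 1-week keratinocytes were split into cells with Xist and no Y-linked UMI (2571 control, 674 ablated) and cells with a Y-linked and no Xist UMI (2506 and 1173). Tnfaip3 was lower in the ablated library in both, from 279.5 to 212 CPM in the first, -0.40 (-0.48 to -0.31), and from 225 to 59.1 CPM in the second, -1.93 (-2.04 to -1.82). The first did not reach 1.5-fold. The sets differed in makeup: bulge-like cells were 526 control and 219 ablated in the first, and 539 and 588 in the second. Within bulge-like cells Tnfaip3 was at -0.34 (-0.68 to -0.011) and -0.21 (-0.52 to 0.098). Within upper follicle-like cells it was at -0.53 (-0.89 to -0.16) and -0.80 (-1.16 to -0.43). In all keratinocytes of these sets the other members varied as well. Tnip3 went from 12 to 24.2 CPM in the first and from 3.95 to 0.714 CPM in the second, in opposite directions. Krt8 in the ablated fractions was at 268 and 131 CPM. Nfkbia was higher in both, 0.56 (0.53 to 0.59) and 0.14 (0.11 to 0.16).

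Other genes of the pathway were counted from lists by role in all keratinocytes. Of 7 other Rel and IκB genes, 4 were higher and 1 lower at 1 day, with a median of 0.66. Rel, which encodes c-Rel, went from 154 to 285 CPM, 0.89 (0.86 to 0.92), and Nfkbid from 3.75 to 7.45 CPM. Rela, which encodes the main partner of p50, was at 79.6 and 87 CPM. At 1 week 2 were higher and none lower, Nfkbid from 5.30 to 9.92 CPM and Bcl3 from 50.3 to 82.4 CPM, while Rel went from 174 to 132 CPM, below 1.5-fold.

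Of 22 kinases and adaptors, 3 were higher and 0 lower at 1 day, and 6 were higher and 3 lower at 1 week. Over all genes compared in keratinocytes 14.2% were higher and 8.01% lower at 1 day, and 25.2% and 10.9% at 1 week, so the counts of higher kinases and adaptors are near the background. The same shares are the background of the other lists. Card14, an adaptor of keratinocytes, went from 12 to 27 CPM at 1 day, 1.16 (1.06 to 1.27). At 1 week Map3k14, the kinase of the alternative pathway, went from 6.96 to 15.1 CPM, and Traf5 went from 28.2 to 12.7 CPM. Of 13 other negative regulators, 1 was higher and 1 lower at 1 day, Irak3 at 0.74 (0.68 to 0.80) and Otulin at -0.61 (-0.68 to -0.54). At 1 week 1 was higher and 0 lower, Rnf11 at 0.73 (0.68 to 0.78).

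Of the receptors and ligands, 8 of 16 were higher and 1 lower at 1 day, and 3 of 15 were higher and 2 lower at 1 week. Il1a, which encodes the alarm cytokine interleukin-1α, went from 2.24 to 13.9 CPM at 1 day, 2.64 (2.43 to 2.84), and from 2.25 to 9.61 CPM at 1 week, 2.09 (1.78 to 2.41). Tnf went from 3.55 to 8.52 CPM at 1 day. The receptor gene Tnfrsf11a was lower at both times, -0.85 (-1.15 to -0.56) and -1.64 (-2.01 to -1.28). Of other target genes, 5 of 19 were higher and 0 lower at 1 day, and 10 of 20 were higher and 2 lower at 1 week. Lcn2, which encodes an iron-binding defence protein, went from 5.05 to 146 CPM at 1 week, 4.85 (4.68 to 5.03). Of 19 stress and dissociation genes, 8 were higher and 0 lower at 1 day and 6 and 0 at 1 week, and their part in the member ratios was not tested.

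Over 48 sums of a class in a library, centred within each time point, the genes with the profile most like each member were found among 10794 genes. Nfkb1 was most like Kdm6b (Pearson r = 0.83) and Birc3 (0.82), Relb most like Birc3 (0.84), Nfkbia most like Sbno2 (0.88) and Tnfaip3 most like Rap1b (0.83). Tnip3 was most like Atp6v1g3 (0.74), one of the genes that lead the Krt8-led cluster, and Tnf (0.70). Icam1 was most like Parp14 (0.88) and Clic4 (0.88). The sums share libraries and depth, so these values are descriptions.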

How the data were processed

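Single-cell RNA of mouse skin was measured in 4 libraries, 1 per genotype and time. The authors deposited gene by cell matrices of UMI counts, made with Cell Ranger 5.0.1 on mm10 per the submitters' processing notes, which also name Seurat. The 1-day matrices also hold hashtag antibody counts.

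Barcodes with under 500 UMIs, under 300 genes or over 15% mitochondrial counts were left out. Scrublet's own threshold marked 19.4% of barcodes in the 1-day control and at most 0.012% in the others, so doublets were removed by score at 0.8% per 1000 barcodes. This removed 26.8% (control) and 25.8% (ablated) of the barcodes passing the filters at 1 day, and 20.0% and 14.7% at 1 week. Cells of each time point were clustered with scanpy 1.11.5 (2000 variable genes, 30 components, 15 neighbours, resolution 1) and clusters were named "-like" from marker lists. Clusters of low UMI count, Krt8-led clusters and S100a8-led clusters were kept apart. Counts were summed per class and library. A gene was compared with at least 20 UMIs over both libraries, and a class was compared with at least 50 cells in both. With 1 library per group no model was fitted, and the sums were checked on simulated data. For shares, cells were thinned to 2000 UMIs and shallower cells left out (2452 control and 3434 ablated keratinocytes at 1 day, 622 and 437 at 1 week).

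The members and lists were chosen with earlier results of these data known, and the limits for naming clusters were set after the data were seen. From each list the 2 genes with the highest and the 2 with the lowest ratio at each time, among those with at least 50 UMIs, could be named, and for likeness the 3 with the highest Pearson correlation of log2(CPM + 1). Alternatives covered scaling (edgeR 4.0.16 TMM and median-of-ratios), filters, doublets, thinning and which cells were used. Gene IDs matched GENCODE M21 for 32235 of 32285 genes. Upstream sequences are RefSeq's (GRCm38.p6).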

Additional observations from a re-analysis of the deposited data

Results flagged for a closer look

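Nfkb1 and Birc3 in keratinocytes differed in opposite directions at the 2 times. The log2 ratio of ablated over control was 0.34 at 1 day and -0.36 at 1 week for Nfkb1, and 0.11 and -0.36 for Birc3. The 1-week direction of Nfkb1 was not the same in all cells: it was at 0.071 in hair follicle-like cells alone and above 0 in 2 of 5 clusters, with 0.39 (0.21 to 0.58) in a bulge-like one. Birc3 was above 0 in 1 of the 5. The difference between the times was not tested, since each rests on 1 pair of libraries and the kits differ.

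The 1-week keratinocytes with Xist and no Y-linked UMI and those with a Y-linked and no Xist UMI also went opposite ways for 2 members. For each of these, both intervals were clear of 0. Tnip3 was at 1.01 in the first and -2.47 in the second, and Icam1 at -0.27 and 0.11. Relb also had opposite signs, 0.045 (-0.17 to 0.26) and -0.27 (-0.47 to -0.082), where the first interval included 0. The sets differed in makeup, with 526 control and 219 ablated bulge-like cells in the first and 539 and 588 in the second. Within bulge-like cells Icam1 went the same way in both, at 0.50 (0.27 to 0.73) and 0.46 (0.28 to 0.65). Within upper follicle-like cells it was at -0.66 (-1.18 to -0.15) and 0.35 (-0.21 to 0.94). Nfkbiz was above 0 in both sets over all keratinocytes, at 0.40 and 0.75. Within bulge-like cells Nfkbiz went opposite ways, at -0.16 (-0.32 to -0.0085) and 0.59 (0.48 to 0.69), with both intervals clear of 0. Within upper follicle-like cells Nfkbiz was below 0 in both, at -0.21 and -0.35. These differences were not tested, and the number of mice in each set of cells is not given by the labels.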

How the results depend on the processing

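Each comparison was repeated under 15 alternatives at 1 day and 17 at 1 week, of which those by sex-linked transcripts, by cluster median, without shared barcodes and without Krt8-positive cells were chosen after seeing the data. Tnip3 at 1 day ranged from 1.04 to 3.64 and passed 1.5-fold in all 15. Icam1 at 1 day ranged from -0.91 to 0.24, where 0.24 is the value in hair follicle-like cells alone, the reverse direction, and passed in 12. Tnfaip3 at 1 week ranged from -1.93 to -0.40 and passed in 14 of 17. Tnip1 at 1 week ranged from 0.12 to 0.92 and passed in 10. Nfkb1 at 1 week ranged from -0.56 to 0.071, where 0.071 is the value in hair follicle-like cells alone, the 1 of 17 in the reverse direction. Nfkbia kept its direction in all alternatives, from 0.22 to 0.63 at 1 day and from 0.12 to 0.56 at 1 week. Tnip3 at 1 week ranged from -2.47, in cells with a Y-linked and no Xist UMI, to 1.83, with no doublets removed. Nfkb2 and Tnfaip3 at 1 day lay near 0 and changed sign in 6 and 9 of 15.

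The number of members called higher at 1 day, 1, became 2 with Krt8-led cells counted as keratinocytes and with all barcodes. The number called lower, 1, became 0 at 2-fold, with the mean over classes, in hair follicle-like cells alone and with the median over clusters. At 1 week the number called higher, 1, became 0 with TMM or median-of-ratios factors, with the mean of each cell's CPM, at 2-fold and with the median over clusters. It became 2 with no doublets removed, with Krt8-led or low-UMI clusters counted, with all barcodes and in Xist-only cells. The number called lower, 1, became 0 with no doublets removed, in hair follicle-like cells alone and in Xist-only cells, and 2 with the mean over classes, in Y-linked-only cells and without Krt8-positive cells. TMM factors shifted all 1-week ratios by -0.20 and 1-day ratios by -0.045. The causes were not tested. At 1 day no low-UMI clusters existed to count. No paired analysis was possible because each group had 1 library.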

Other observations

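At 1 week the Krt8-led cells also split by sex-linked transcripts. The 384 cells with Xist and no Y-linked UMI held 92.5 CPM of Tnip3, 2858 CPM of Nfkbia and 376 CPM of Tnfaip3. The 150 cells with a Y-linked and no Xist UMI held 5.08, 1327 and 124 CPM of the same genes. Krt8 was at 1138 and 498 CPM in the same cells.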
